A study of Mus musculus with 8 samples.

Results

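The zona pellucida is the glycoprotein coat of the egg, and ovastacin is the egg protease that alters it after fertilization. The genes described here were picked by name: Zp1, Zp2 and Zp3, which encode the coat proteins of the mouse, and Astl, which encodes ovastacin. They are 4 of the 54838 genes counted, and all 4 passed the filter on low counts that left 15572 genes for testing. RNA of mouse oocytes was sequenced in 8 libraries of 5 to 10 oocytes each, all of strain C57BL/6. The 4 groups had 2 libraries each: knockout oocytes arrested in metaphase II of meiosis (MII), wild-type control oocytes at MII, knockout oocytes at the germinal vesicle (GV) stage, and wild-type control oocytes at GV. The knockout removed BAF250a, a subunit of the BAF chromatin remodelling complex encoded by Arid1a, with Gdf9-cre. That recombinase is driven by an oocyte promoter that is on in follicles, so the surrounding follicle cells keep the gene and oocytes before that stage have not yet lost it. The labels do not say whether controls carried the recombinase or whether replicates came from separate mice, so a p-value covers only how far these libraries scatter, which may be technical.

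The coat is laid down while the oocyte grows. ZP2 and ZP3 form its filaments, ZP1 cross-links them, and sperm bind to ZP2. The transcription factor FIGLA binds sites of the letters CANNTG, called E-boxes, in the promoters of the zona genes. Ovastacin waits in cortical granules under the egg membrane, and on fertilization it is released and cleaves ZP2, after which sperm no longer bind. RNA was measured here, not protein.

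Reads in genes numbered between 19587421 and 33289150 per library. Arid1a had 1109 and 576 reads in knockout MII libraries, against 42047 and 39148 in control MII libraries. It had 86 and 312 reads in knockout GV libraries, against 8178 and 10928 in control GV libraries. Levels below are in CPM, the reads of a gene per 1000000 reads of the library, scaled between libraries by the trimmed mean of M values (TMM), and group values are means ± SD of 2 libraries. Of 10 oocyte markers, none was at 0 in any library, and their summed level was 20550 to 24330 CPM at MII and 39900 to 46820 CPM at GV.

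In mm10 the genes lie apart. Zp1 (ENSMUSG00000024734) spans chromosome 19 from 10914287 to 10920632 on the minus strand, with 12 exons. Zp2 (ENSMUSG00000030911) spans chromosome 7 from 120126772 to 120145291 on the minus strand, with 18 exons. Zp3 (ENSMUSG00000004948) spans chromosome 5 from 135980099 to 135988624 on the plus strand, with 8 exons. Astl (ENSMUSG00000050468) spans chromosome 2 from 127338639 to 127357651 on the plus strand, with 11 exons. No other annotated gene overlaps any of them on either strand, so their reads are not shared with an antisense partner.

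Promoter sequences are shown because FIGLA, the factor of the zona genes, reads E-boxes there, and because its own RNA is among the results below. They run from 250 bases before the gene start to 50 bases after it, 5′ to 3′, and come from RefSeq (GRCm38.p6). The 2 genes with an entry are Zp3, with 1 start at chr5:135979855-135980154, and Astl, with 2 starts at chr2:127338389-127338688 and chr2:127341386-127341685, all on the plus strand. Capitals mark each CANNTG, a motif that reads the same on both strands.
Zp3: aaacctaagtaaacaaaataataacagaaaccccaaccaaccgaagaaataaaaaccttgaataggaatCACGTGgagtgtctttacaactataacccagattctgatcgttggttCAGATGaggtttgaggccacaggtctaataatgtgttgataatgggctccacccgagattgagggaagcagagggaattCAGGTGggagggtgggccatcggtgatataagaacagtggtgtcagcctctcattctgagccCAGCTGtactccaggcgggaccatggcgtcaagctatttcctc
Astl, first start: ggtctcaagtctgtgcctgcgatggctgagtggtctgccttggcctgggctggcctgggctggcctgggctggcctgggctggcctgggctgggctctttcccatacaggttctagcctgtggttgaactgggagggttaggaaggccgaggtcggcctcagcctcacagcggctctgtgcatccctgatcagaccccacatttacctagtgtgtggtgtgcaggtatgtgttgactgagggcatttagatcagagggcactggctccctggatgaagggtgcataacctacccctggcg
Astl, second start: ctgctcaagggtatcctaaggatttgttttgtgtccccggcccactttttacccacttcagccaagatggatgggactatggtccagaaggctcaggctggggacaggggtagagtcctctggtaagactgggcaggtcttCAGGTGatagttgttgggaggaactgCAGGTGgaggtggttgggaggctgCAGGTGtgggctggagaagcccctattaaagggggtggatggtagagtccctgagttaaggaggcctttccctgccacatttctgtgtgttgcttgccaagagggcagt

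The Zp3 window holds 4 E-boxes, CACGTG at position -181 from the start, CAGATG at -134, CAGGTG at -55 and CAGCTG at 8 after the start. It also holds TATAA, the core of a TATA box, at -160 and -29. The window at the second Astl start holds CAGGTG at -109, -83 and -59 and no TATAA, and the window at the first start holds neither motif. E-boxes are frequent: CANNTG occurs in 72.3% of 32841 promoter windows of the same length, 39.6% of them have 2 or more, and TATAA occurs on either strand in 24.9%. A match is a description of letters, not of binding.

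The 3 zona genes were among the most abundant transcripts of the GV oocyte. By CPM, Zp3 ranked 8 to 18 among all genes in the 4 GV libraries, Zp2 ranked 14 to 38 and Zp1 ranked 24 to 37. Together they took 1.059% and 0.9809% of the reads in knockout GV libraries, and 1.031% and 1.316% in control GV libraries. At MII their share was 0.0569% and 0.04729% in knockout libraries, and 0.04084% and 0.03595% in control libraries. Astl ranked 331 to 842 at MII and 147 to 388 at GV.

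**Figure D1:**
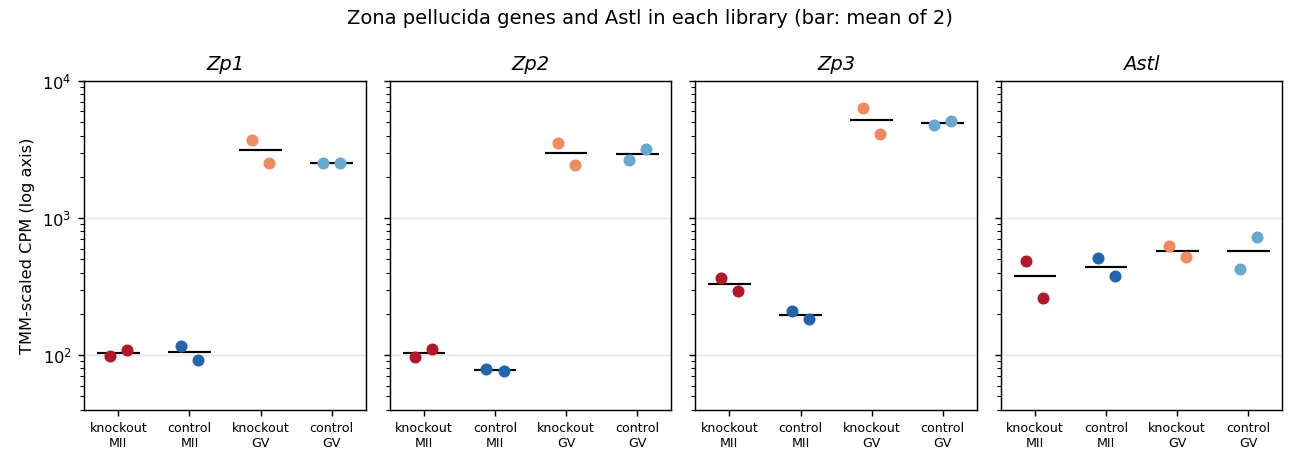
Level of Zp1, Zp2, Zp3 and Astl in each library, in TMM-scaled CPM on a log axis, with 1 point per library and a bar at the mean of the 2 libraries of a group. The zona genes sit between 76.3 and 368 CPM in every MII library and at 2443 CPM or more in every GV library, while the Astl values of the 2 stages overlap.

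Maturation was compared first, as MII against GV within each genotype. Zp1, which encodes the cross-linker, had 98.6 and 109 CPM in knockout MII libraries, against 3715 and 2514 CPM in knockout GV libraries. Its level was 117 and 92.9 CPM in control MII libraries, against 2523 and 2521 CPM in control GV libraries. No MII library came near a GV library in either genotype. Zp1 fell by 4.91 ± 0.35 (SE) on the log2 scale in knockout oocytes and by 4.58 ± 0.35 in control oocytes. The adjusted p was 7.56e-06 in knockout oocytes and 1.57e-05 in control oocytes, by edgeR's quasi-likelihood test with Benjamini-Hochberg adjustment over 15572 genes, and a gene passed below 0.05.

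Zp2, which encodes the protein that sperm bind and ovastacin cuts, had 97.5 and 111 CPM in knockout MII libraries, against 3555 and 2443 CPM in knockout GV libraries. Its level was 79.5 and 76.3 CPM in control MII libraries, against 2675 and 3174 CPM in control GV libraries. The stages were again far apart in both genotypes. Zp2 fell by 4.85 ± 0.35 on the log2 scale in knockout oocytes (adjusted p = 7.46e-06) and fell by 5.23 ± 0.35 in control oocytes (adjusted p = 1.26e-05).

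Zp3, the most abundant of the zona genes, had 368 and 295 CPM in knockout MII libraries, against 6340 and 4114 CPM in knockout GV libraries. Its level was 212 and 184 CPM in control MII libraries, against 4811 and 5107 CPM in control GV libraries. The stages did not overlap, and among MII libraries both knockout values lay above both control values. Zp3 fell by 3.98 ± 0.36 on the log2 scale in knockout oocytes (adjusted p = 2.13e-05) and by 4.65 ± 0.37 in control oocytes (adjusted p = 1.84e-05).

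Astl had 490 and 261 CPM in knockout MII libraries, against 622 and 520 CPM in knockout GV libraries. Its level was 508 and 378 CPM in control MII libraries, against 427 and 723 CPM in control GV libraries. The stages overlapped in control oocytes, and in knockout oocytes both MII values lay below both GV values. The log2 fold change was -0.61 ± 0.37 in knockout oocytes (adjusted p = 0.199) and -0.38 ± 0.37 in control oocytes (adjusted p = 0.423), so Astl did not pass in either genotype. The knockout value rested on the first knockout MII library: without it the log2 fold change was -1.19 with an adjusted p of 0.0485.

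Thus 3 of the 4 genes were called lower at MII in each genotype and none was called higher. Lower calls were common: 29.1% of all genes tested passed as lower in knockout oocytes and 27.9% in control oocytes, while 19.9% passed as higher in knockout and 21.2% in control oocytes. The median log2 fold change of all genes was -0.33 in knockout and -0.20 in control oocytes. Relative to their GV level, MII oocytes held 3.33% of Zp1, 3.48% of Zp2, 6.34% of Zp3 and 65.7% of Astl in the knockout. In the control they held 4.17% of Zp1, 2.66% of Zp2, 3.99% of Zp3 and 77.0% of Astl. The share of tested genes with a more negative change was 13.7% for Zp1, 13.9% for Zp2 and 18.4% for Zp3 in knockout oocytes, and 12.1% for Zp1, 9.47% for Zp2 and 11.8% for Zp3 in control oocytes. CPM is a share of a library, so less of this RNA per oocyte and a change in the total RNA of the oocyte cannot be told apart. Whether RNA was selected by its poly(A) tail is not given, so a part of tail length in these changes was not tested.

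**Figure D2:**
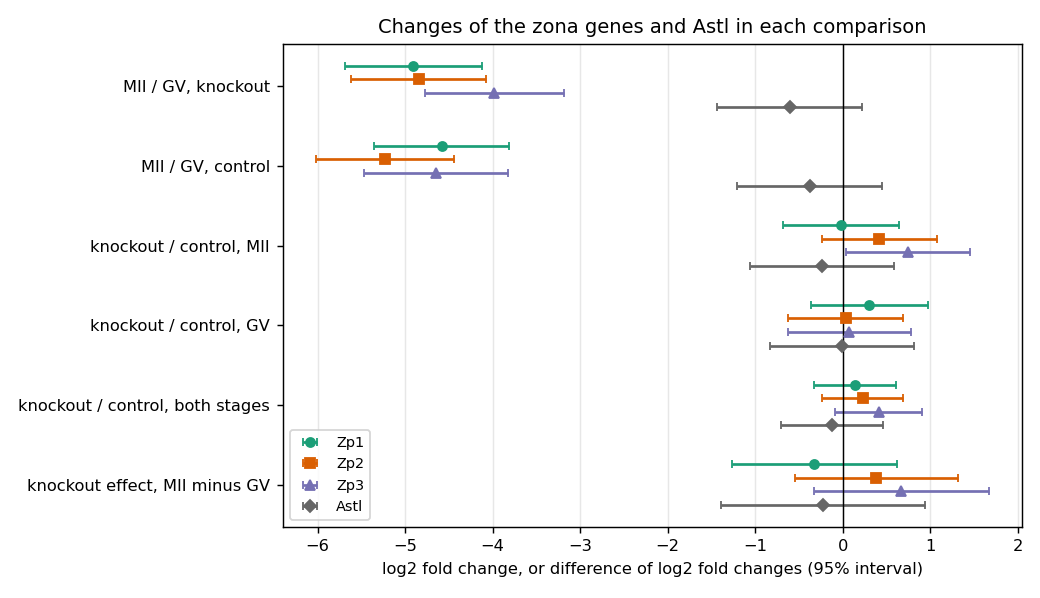
Log2 fold change of each gene with its 95% interval in the comparisons of stage and genotype, and in the last row the knockout effect at MII minus that at GV. The zona genes lie between -5.23 and -3.98 in the 2 comparisons of stage, and all 4 intervals include 0 in the comparisons of knockout with control except that of Zp3 at MII, which runs from 0.03 to 1.46.

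Because scaling between libraries cancels in a ratio within a library, the genes were also compared with each other, per kilobase of merged exon length. These ratio tests were added after the data had been seen. All 6 ratios recombine the stage comparisons above, so they add no separate evidence. For the ratios to Astl the separation of the stages was already known. Over both genotypes, the log2 ratio of Zp1 to Astl averaged -1.56 ± 0.46 (SD) in the 4 MII libraries and 2.67 ± 0.36 in the 4 GV libraries. The ratio of Zp2 to Astl averaged -2.23 ± 0.63 at MII and 2.29 ± 0.24 at GV, and that of Zp3 to Astl averaged 0.32 ± 0.65 at MII and 4.11 ± 0.31 at GV. In each of these ratios all MII libraries lay below all GV libraries, and the difference was -4.23 for Zp1, -4.52 for Zp2 and -3.80 for Zp3. The exact two-sided permutation p was 0.0286 for each, the smallest that 4 libraries against 4 allow, and 0.0429 after Benjamini-Hochberg adjustment over 6 ratios. Libraries were permuted without regard to genotype, and the 6 ratios come from only 4 genes, so they are not separate tests.

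Among the zona genes themselves, the log2 ratio of Zp3 to Zp2 averaged 2.54 ± 0.28 at MII and 1.82 ± 0.08 at GV. Zp3 thus lost less than Zp2, by 0.72 on the log2 scale, and all 4 MII ratios lay above all 4 GV ratios. The exact permutation p was 0.0286 (adjusted p = 0.0429), again the smallest that 4 libraries against 4 allow. The direction was already seen in the stage changes of Zp2 and Zp3 above, so this p is no separate support. The ratio of Zp3 to Zp1 differed by 0.44 between the stages (exact permutation p = 0.143, adjusted p = 0.171) and that of Zp1 to Zp2 by 0.29 (exact permutation p = 0.171, adjusted p = 0.171), and neither passed. Whether these 2 ratios moved differently in the genotypes was not tested. The log2 ratio of Zp3 to Zp1 was 2.48 and 2.02 in knockout MII libraries, against 1.35 and 1.29 in knockout GV libraries, and 1.43 and 1.57 in control MII libraries, against 1.51 and 1.60 in control GV libraries. The log2 ratio of Zp1 to Zp2 was 0.48 and 0.43 in knockout MII libraries, against 0.52 and 0.50 in knockout GV libraries, and 1.02 and 0.74 in control MII libraries, against 0.38 and 0.13 in control GV libraries. The MII ratio of Zp3 to Zp1 was thus higher than at GV in both knockout libraries and overlapped in control, and that of Zp1 to Zp2 was higher in both control libraries and lower in both knockout libraries. With any 1 library left out, the difference for Zp3 to Zp2 stayed between 0.58 and 0.80, but 3 libraries against 4 cannot go below an exact p of 0.0571.

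**Figure D3:**
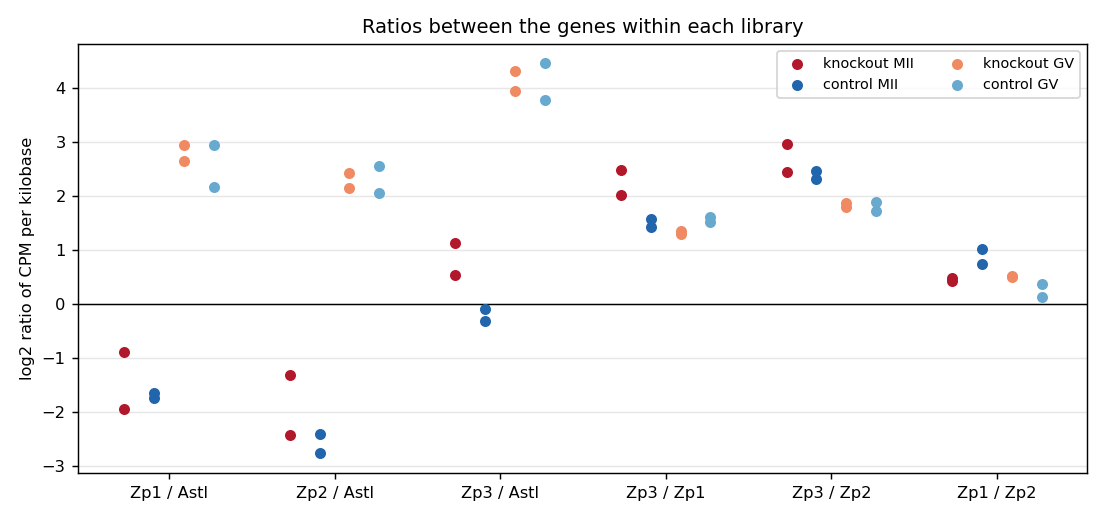
Log2 ratio of CPM per kilobase between pairs of the genes within each library, with 1 point per library and groups in the order knockout MII, control MII, knockout GV and control GV. The ratios of the zona genes to Astl lie from -2.76 to 1.13 at MII and from 2.04 to 4.45 at GV, while the ratios among zona genes differ far less.

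Per kilobase, Zp3 had the highest level of the 4 genes in knockout oocytes at both stages and in control GV oocytes. It averaged 251 ± 39.1 CPM per kilobase in knockout MII, 150 ± 14.7 in control MII, 3951 ± 1190 in knockout GV and 3748 ± 158 in control GV oocytes. Astl averaged 147 ± 63.2 CPM per kilobase in knockout MII, 173 ± 35.9 in control MII, 223 ± 28.2 in knockout GV and 225 ± 81.9 in control GV oocytes. At MII Astl therefore stood second or first, above Zp1 and Zp2, whereas at GV it was the lowest of the 4 genes. In control MII oocytes Astl and Zp3 did not differ beyond their spread.

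Zp1 averaged 52.4 ± 3.70 CPM per kilobase in knockout MII, 53.1 ± 8.76 in control MII, 1572 ± 429 in knockout GV and 1273 ± 0.467 in control GV oocytes. Zp2 averaged 38.3 ± 3.54 CPM per kilobase in knockout MII, 28.6 ± 0.826 in control MII, 1101 ± 289 in knockout GV and 1073 ± 130 in control GV oocytes. In control GV oocytes the order of Zp1 and Zp2 turned with the length used: over the longest coding transcript Zp2 averaged 1309 and Zp1 1285 CPM per kilobase, within the spread of Zp2. In knockout GV oocytes Zp1 stayed above Zp2, at 1587 and 1343, also within the spread.

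The study asked what the loss of BAF250a does to the oocyte transcriptome, and the second comparison was knockout against control at each stage. Neither the zona genes nor Astl passed at either stage. At GV, where the zona RNA is abundant, the log2 fold change was 0.30 ± 0.30 for Zp1, 0.04 ± 0.30 for Zp2, 0.08 ± 0.32 for Zp3 and -0.01 ± 0.37 for Astl, and scaled by library totals alone Zp1 turned to -0.02, Zp2 to -0.29 and Zp3 to -0.25. The 95% intervals ran from -0.36 to 0.97 for Zp1, from -0.62 to 0.69 for Zp2, from -0.63 to 0.78 for Zp3 and from -0.83 to 0.81 for Astl. At GV 0 of the 4 genes passed edgeR's adjusted test, 0 had an unadjusted p below 0.05 and 0 passed DESeq2, beside 0.989% of all genes called in either direction.

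The first knockout GV library had the higher value of its group for all 4 genes, with 3715 against 2514 CPM for Zp1. Its TMM factor, the correction applied to its depth, was the lowest of the 8 libraries at 0.7786, and the second control GV library had the highest at 1.219. In raw counts the 2 knockout GV libraries were close, with 65600 and 60859 reads of Zp1, 62774 and 59143 of Zp2 and 111943 and 99609 of Zp3, while Astl had fewer in the first, 10985 against 12595. Control GV libraries had 54346 and 60169 reads of Zp1, 57621 and 75737 of Zp2, 103652 and 121874 of Zp3 and 9190 and 17256 of Astl. The part of that TMM factor in the GV values was not tested beyond the other scalings.

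At MII the log2 fold change was -0.02 ± 0.30 for Zp1, with an interval from -0.69 to 0.65 and a sign that turned under 3 other settings and in 3 of the 8 fits that left out a library. It was 0.42 ± 0.30 for Zp2, with an interval from -0.24 to 1.08, and -0.24 ± 0.37 for Astl, with an interval from -1.06 to 0.59. Zp3 had the largest difference of the 4 genes at 0.74 ± 0.32, with both knockout libraries above both control libraries. Its unadjusted p was 0.0417 and its adjusted p 0.207, so it did not pass, and over all other settings its value stayed between 0.59 and 0.97. Thus 0 of the 4 genes passed edgeR or DESeq2 at MII and 1 had an unadjusted p below 0.05 in each tool, beside 5.14% of all genes called in either direction.

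Averaged over both stages, the log2 fold change was 0.14 ± 0.21 for Zp1, 0.23 ± 0.21 for Zp2, 0.41 ± 0.23 for Zp3 and -0.12 ± 0.26 for Astl. None passed, with adjusted p-values from 0.306 to 0.843, beside 6.45% of all genes called in either direction. The knockout effect at MII minus that at GV was -0.32 ± 0.42 for Zp1, 0.38 ± 0.42 for Zp2, 0.67 ± 0.45 for Zp3 and -0.23 ± 0.53 for Astl. None passed here either, with adjusted p-values from 0.619 to 0.948 and 0.0835% of all genes called. No gene of the 4 had an unadjusted p below 0.05 in these last 2 tests or passed in DESeq2.

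The zona transcripts share a feature of their mature RNA. In GENCODE M21 the 3′ untranslated region (UTR) of the main coding transcript is 34 bases long in Zp1, 49 in Zp2 and 13 in Zp3, and 876 in Astl. Of the 12956 coding genes tested, 2.82% have a shorter one than Zp1, 3.6% than Zp2, 1.98% than Zp3 and 49% than Astl. Genes with no annotated 3′ UTR are counted among the shorter ones in these shares. The 3′ UTR is where the oocyte's CPEB proteins bind TTTTAT or TTTTAAT, the cytoplasmic polyadenylation elements that lengthen the tails of stored messages during maturation. None of the 4 genes has either motif there, while 57.5% of the coding genes do. Among the 244 coding genes with an annotated 3′ UTR of 1 base up to the length of that of Zp2, 2.05% do. Genes with no annotated 3′ UTR are not among these 244. A part of length in the absence of the motifs from the zona genes was not tested. All 4 have the cleavage signal AATAAA in the last 40 bases of the transcript.

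As a description, the 244 coding genes with an annotated 3′ UTR no longer than that of Zp2 include the zona genes. Their median log2 fold change from GV to MII was -3.09 in knockout and -2.53 in control oocytes. The median over all coding genes was -0.24 in knockout and -0.09 in control oocytes. For the 7455 genes with either motif anywhere in the 3′ UTR it was 0.45 in knockout and 0.64 in control oocytes. For the 5501 genes with neither, it was -1.67 in knockout and -1.50 in control oocytes. The sets also differ in length, with a median 3′ UTR of 1568 bases with a motif and 356 bases without, so motif and length are not separated here. Astl has neither motif and a 3′ UTR near the median length of 904 bases. It lay closer to the median of all coding genes than to the zona genes or to the median of the genes with neither motif. A part of 3′ UTR length or of the motifs in the changes was not tested, and a part of tail length in the measured values was not tested here either.

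**Figure D4:**
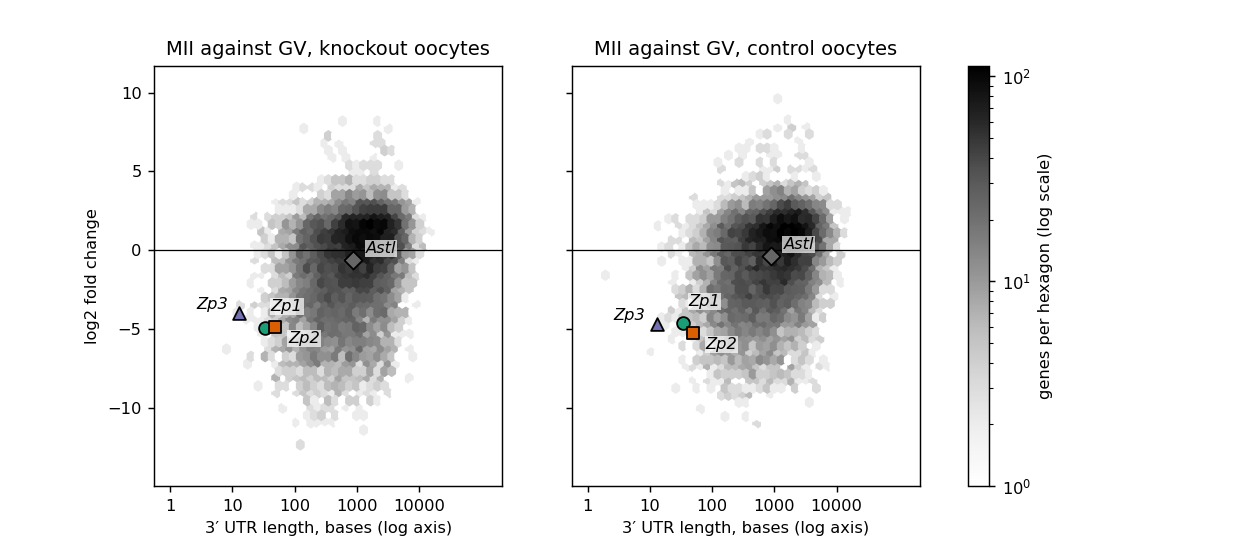
Log2 fold change on maturation, MII against GV, against annotated 3′ UTR length on a log axis, in knockout and control oocytes. The tested coding genes with an annotated 3′ UTR are shown, and darker hexagons hold more genes. Zp1, Zp2 and Zp3 sit at the left edge with 13 to 49 bases and changes from -5.23 to -3.98, and Astl sits near the middle with 876 bases.

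The transcription factors of the zona genes were followed as a list of 11 genes, all tested. At MII 3 were called lower and 3 higher in each genotype. Beside them, 29.1% of all genes were called lower and 19.9% higher in knockout oocytes, and 27.9% and 21.2% in control oocytes. Figla had 3 and 1 reads in knockout MII libraries, against 596 and 634 in knockout GV libraries, which is 0.227% of the GV level with a counting interval from 0.0617% to 0.582%. In control oocytes it fell to 26 and 8 reads at MII, against 647 and 869 at GV, a log2 fold change of -5.72 ± 0.64 (adjusted p = 8.56e-05), and -6.99 without control MII library a or -5.13 without b. Nobox, an oocyte homeobox factor, fell to 53.3 CPM in knockout MII, against 1090 in knockout GV, and to 32.2 CPM in control MII, against 949 in control GV. Lhx8, a LIM homeobox factor of the early oocyte, fell to 43.4 CPM in knockout MII, against 177 in knockout GV, and to 22.7 CPM in control MII, against 130 in control GV.

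Other genes of the list were called higher. Tcf12, one of the E-proteins that pair with factors such as FIGLA, had 29.5 CPM in knockout MII, against 10.3 in knockout GV, and it was called higher with a log2 fold change of 1.52 ± 0.43. Sohlh2, a factor of the early oocyte, had 32.5 CPM in control MII, against 8.13 in control GV, and was called higher at 2.00 ± 0.39, a call kept under every setting tried. Of the 3 higher calls in knockout oocytes, 0 were left without the first and 1 without the second knockout GV library, and of the 3 in control oocytes 1 was left without the first control GV library.

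Knockout against control, 1 of the 11 transcription factors was called at MII and 0 at GV, beside 5.14% and 0.989% of all genes. That gene was Figla, whose summed 4 reads in knockout MII libraries were 11% of the control level, with a counting interval from 2.84% to 30.9%. Its log2 fold change was -3.15 ± 0.79 (adjusted p = 0.0482), a call lost when any library other than control MII library b was left out, with library totals and without mitochondrial genes. The value ran from -3.85 without the first knockout MII library to -1.90 without control MII library a, and was -3.76 without control MII library b. The Figla difference stands beside zona genes that did not pass, and at GV its own log2 fold change was -0.15 ± 0.51 (adjusted p = 0.988). At MII 4 of the 11 had an unadjusted p below 0.05 in edgeR and DESeq2 called 3, and at GV both numbers were 0.

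Of 14 genes that process and glycosylate secreted proteins 13 were tested. At MII 5 of the 13 were called higher and 0 lower in knockout oocytes, beside 19.9% of all genes called higher. In control oocytes 7 of the 13 were called higher and 1 lower, beside 21.2% of all genes called higher. Man2a1, a mannosidase of the Golgi, rose to 11.4 CPM in knockout MII, against 1.65 in knockout GV, and to 15.9 CPM in control MII, against 2.73 in control GV. Galnt1, which starts O-linked sugar chains, rose to 50.1 CPM in knockout MII, against 12.9 in knockout GV, and to 44.7 CPM in control MII, against 11.2 in control GV. The higher calls fell to between 2 and 3 in knockout oocytes and between 2 and 4 in control oocytes when any 1 library of that genotype was left out.

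Furin, a convertase of the secretory pathway, averaged 345 ± 153 CPM in knockout MII and 237 CPM in knockout GV oocytes, which did not pass (log2 fold change 0.54 ± 0.34, adjusted p = 0.202). In control oocytes it rose to 643 ± 164 CPM at MII, against 249 CPM at GV, a log2 fold change of 1.37 ± 0.34 (adjusted p = 0.00778). Between genotypes at MII it was at -0.90 ± 0.34 (adjusted p = 0.154). The control call was lost without the first control GV library or control MII library a. In the list 0 of 13 genes passed between genotypes at either stage, beside 0.989% of all genes at GV and 5.14% at MII. Unadjusted p-values below 0.05 numbered 1 at GV and 3 at MII, and DESeq2 called 0 at GV and 1 at MII.

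The cortical granule list, with the machinery of granule transport and release around ovastacin, had 17 of 18 genes tested. At MII 7 were called lower and 4 higher in knockout oocytes, and 6 lower and 4 higher in control oocytes. Of all genes tested, 29.1% were called lower and 19.9% higher in knockout, and 27.9% lower and 21.2% higher in control oocytes. Calr, which encodes calreticulin, fell to 17.3 CPM in knockout MII, against 698 in knockout GV, and to 17.8 CPM in control MII, against 438 in control GV. Nsf, the ATPase that takes apart membrane fusion complexes, fell to 43.3 CPM in knockout MII, against 395 in knockout GV, and to 32.2 CPM in control MII, against 346 in control GV. Snap23, a fusion protein of the plasma membrane, rose to 84.8 CPM in knockout MII, against 18.1 in knockout GV, and to 34.8 CPM in control MII, against 9.63 in control GV. The 4 higher calls fell to 2 without the first GV library of the genotype.

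Vamp3, a vesicle fusion protein, was the cortical granule gene called between genotypes at MII. It averaged 12.1 ± 3.61 CPM in knockout MII and 40.5 ± 2.59 CPM in control MII oocytes, a log2 fold change of -1.75 ± 0.35 (adjusted p = 0.0226). The call was lost without the first knockout MII, control MII b or the second control GV library. Over both stages, Vamp3 was called lower at -1.67 under every setting tried, and Snap23 was called higher at 1.10, a call lost in 7 of 8 fits that left out a library. At GV 0 of 17 passed in edgeR, with 2 unadjusted p-values below 0.05 and 1 call in DESeq2. Of all genes, 0.989% were called between genotypes at GV, 5.14% at MII and 6.45% over both stages.

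Relatives of the 4 genes were mostly silent or low. Of 11 other genes with a zona pellucida domain 5 were tested, and at MII 1 was called higher and 2 lower in each genotype. Calls over all genes were 29.1% lower and 19.9% higher in knockout, and 27.9% lower and 21.2% higher in control oocytes. Umodl1, a zona pellucida domain gene of unclear role in the oocyte, fell to 56.9 CPM in knockout MII, against 3097 in knockout GV, and to 49.6 CPM in control MII, against 1258 in control GV. The knockout log2 fold change of Umodl1 was -5.77, and -6.46 without the second knockout MII library. Tgfbr3, the betaglycan coreceptor of the TGF-beta family, rose to 96.9 CPM in knockout MII, against 24.5 in knockout GV, and to 81.0 CPM in control MII, against 25.6 in control GV. Dmbt1, a secreted scavenger receptor, had 0 reads in both knockout MII libraries and was at least 116-fold lower there than in knockout GV libraries. Its call in control oocytes, from 0 and 50 reads at MII, was lost without either control GV library and in DESeq2.

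The astacin proteases related to ovastacin, listed with their inhibitor fetuin-B, had 4 of 6 genes tested. Among all genes, 29.1% were called lower at MII in knockout and 27.9% in control oocytes, and 19.9% and 21.2% higher. Fetub, whose protein inhibits ovastacin and is known from the liver, fell to 22.4 CPM in knockout MII, against 219 in knockout GV, and to 24.1 CPM in control MII, against 199 in control GV. The log2 fold change of Fetub was -3.28 in knockout oocytes, and -4.12 without the first knockout MII library, and -3.04 in control oocytes, and -3.69 without control MII library a. It was the 1 gene of the list called in knockout oocytes, while in control oocytes 2 were called lower, of which 1 was left in 5 of the 8 fits that left out a library, and 1 higher. Bmp1, a procollagen protease, had 0 reads in all 4 knockout libraries, 196 and 319 reads in control MII libraries and 30 and 11 in control GV libraries. At MII it was at least 89.2-fold lower in knockout than in control oocytes, against a floor of 3 reads per library, and it was called lower at MII under every setting that tested it. Its higher call at MII in control oocytes was lost without control MII library b or either control GV library.

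Storage and decay of maternal messages had 17 genes tested. At MII 7 were called higher and 5 lower in knockout oocytes, beside 19.9% and 29.1% of all genes. In control oocytes 8 were called higher and 5 lower, beside 21.2% and 27.9% of all genes. Cnot7, a deadenylase that shortens tails, rose to 1282 CPM in knockout MII, against 208 in knockout GV, and to 983 CPM in control MII, against 105 in control GV. Dcp2, which removes the cap, rose to 150 CPM in knockout MII, against 26.9 in knockout GV, and to 123 CPM in control MII, against 28.4 in control GV. Ybx2, which encodes the RNA-binding protein MSY2 that keeps stored messages stable, fell to 74.2 CPM in knockout MII, against 583 in knockout GV, and to 123 CPM in control MII, against 491 in control GV. Zar1l, a zygote arrest family member, fell to 2.23 and 10.7 CPM in knockout MII libraries, against 1135 and 702 in knockout GV libraries, and to 7.89 CPM in control MII, against 593 in control GV. The knockout log2 fold change of Zar1l was -7.16, and -8.68 without the second or -6.49 without the first knockout MII library, and that of Ybx2 was -2.97, and -3.58 without the first. In control oocytes the higher calls fell to 5 without control MII library a, and the lower calls to 3 without control MII library b or either control GV library.

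No storage or decay gene was called between genotypes at either single stage by edgeR, beside 0.989% of all genes at GV and 5.14% at MII. Unadjusted p-values below 0.05 numbered 4 at GV and 0 at MII, and DESeq2 called 1 at GV and 0 at MII. Over both stages 1 of the 17 genes was called, beside 6.45% of all genes. This was Lsm14b, a repressor of translation in the oocyte, called lower at -0.80, a call lost in each of the 8 fits that left out a library.

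At the egg surface, where sperm arrive after the zona, 5 genes were tested. At MII 3 of them were called lower and 1 higher in each genotype. The shares of all genes were 29.1% lower and 19.9% higher in knockout, and 27.9% lower and 21.2% higher in control oocytes. Izumo1r, which encodes the sperm receptor Juno, fell to 47.3 CPM in knockout MII, against 795 in knockout GV, and to 46.7 CPM in control MII, against 651 in control GV. Slc39a10, a zinc transporter of the oocyte, rose to 456 CPM in knockout MII, against 119 in knockout GV, and to 358 CPM in control MII, against 57.7 in control GV. Cd9, a membrane protein needed for gamete fusion, averaged 2.81 ± 1.2 CPM in knockout MII and 9.64 ± 2.76 CPM in control MII oocytes (log2 fold change -1.77 ± 0.37, adjusted p = 0.0248). That call was lost without the second knockout MII, control MII b, the first knockout GV or the second control GV library. The Cd9 call was also lost in the fit of the 2 MII groups alone. At GV 0 of the 5 passed in edgeR, with 1 unadjusted p below 0.05 and 1 call in DESeq2. Between genotypes 0.989% of all genes were called at GV and 5.14% at MII.

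**Figure D5:**
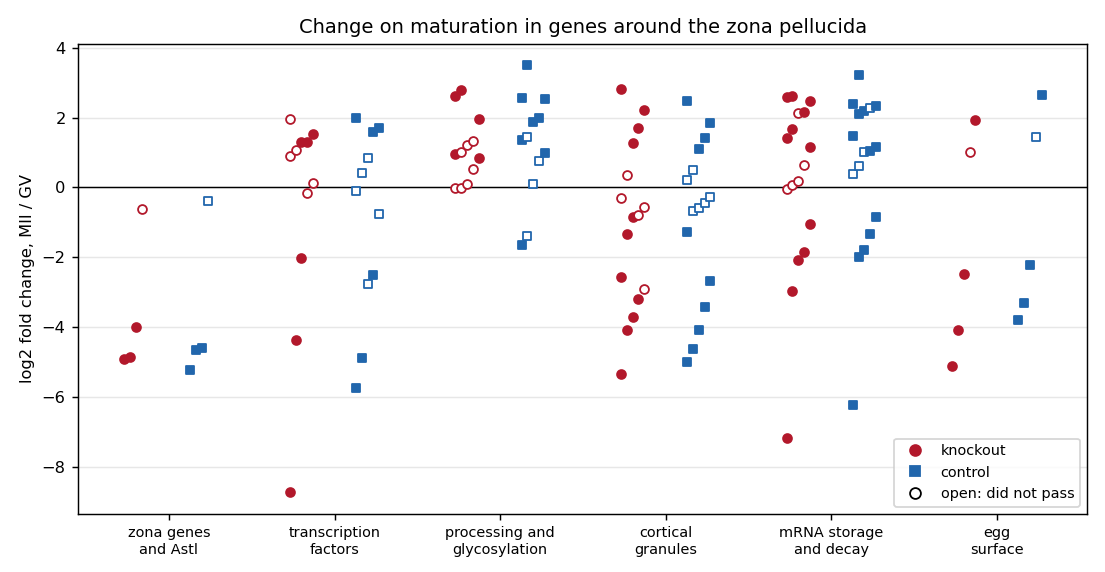
Log2 fold change on maturation, MII against GV, of the tested genes in 6 groups, with 1 point per gene, knockout in circles left of control in squares, and open symbols for genes that did not pass. Genes with no reads in a group are left out, and the lowest knockout point among the transcription factors is Figla, which rests on 4 reads at MII. The zona genes lie below -3.9, and the other groups spread to both sides, with the processing and glycosylation genes mostly above 0. Some of these have open symbols in each genotype, and Mgat2, tested in that list, is among the genes left out.

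Oocyte markers as a list fell with the zona genes in part. At MII 8 of 10 were called lower and 0 higher in knockout oocytes, and 6 lower and 1 higher in control oocytes. Over all genes, 29.1% were called lower and 19.9% higher in knockout, and 27.9% lower and 21.2% higher in control oocytes. Ooep, a gene of the subcortical maternal complex, fell to 119 CPM in knockout MII, against 4950 in knockout GV, and to 103 CPM in control MII, against 4692 in control GV. Padi6, another gene of that complex's surroundings, fell to 125 CPM in knockout MII, against 4071 in knockout GV, and to 126 CPM in control MII, against 4608 in control GV. Some markers of the list went the other way. Oosp1 had 6964 CPM in knockout MII, against 3616 in knockout GV, and 5338 CPM in control MII, against 2355 in control GV. Bmp15 had 2217 CPM in knockout MII, against 1571 in knockout GV, and 1778 CPM in control MII, against 1129 in control GV. The knockout log2 fold change of Ooep was -5.38, and -6.06 without the first knockout MII library. The knockout count of the list fell to 3 without the second knockout MII library.

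Markers of other cells were low beside the oocyte markers. The summed level of 21 granulosa and cumulus markers was 121.7 and 103.1 CPM in knockout MII, 163.7 and 185.6 in control MII, 68.37 and 87.59 in knockout GV and 166.5 and 134.7 in control GV libraries. All 4 knockout libraries lay below all 4 control libraries in that sum. Cyp19a1, the aromatase gene, made up 63.4 and 57.0 CPM of it in knockout MII and 87.5 and 74.8 CPM in control MII libraries. At MII, beside 5.14% of all genes, 2 of 17 tested markers were called between genotypes, both lower in knockout oocytes. Of the 17, 9 had an unadjusted p below 0.05 and DESeq2 called 6. The 2 called were Gja1, the connexin of gap junctions, with 1 and 0 reads in knockout MII, against 90 and 93 in control MII libraries (adjusted p = 0.013), and Hsd17b1, a steroid enzyme gene, with 2 and 0 reads in knockout MII, against 79 and 71 in control MII libraries (adjusted p = 0.0305). The call of Hsd17b1 was lost in 4 of the fits without 1 library, and those of both genes in the fit of the 2 MII groups alone. Gja1 and Hsd17b1 lay lower in the same comparison as the MII calls of Figla, Vamp3 and Cd9. The median log2 fold change of the 17 tested markers there was -2.54, but some went the other way without a call. Nr5a2 averaged 42.0 CPM in knockout MII, against 26.4 in control MII, and Kitl 5.22 CPM, against 1.11. Between 3 and 12 of the 21 were at 0 in a library, and Fshr, the receptor for follicle-stimulating hormone, was at 0 in all MII libraries. The summed level of 16 blood and immune markers was 0.781 and 0.312 CPM in knockout MII, 5.768 and 59.95 in control MII, 37.11 and 52.26 in knockout GV and 73.06 and 63.41 in control GV libraries, with Ptprc, Lyz2 and Cd14 at 0 in all 8. Single genes carried most of the GV sums and of the sum of control MII library b: C1qb, a complement gene, had 817 and 1133 reads in knockout GV and 1492 and 1211 in control GV libraries, and at most 66 in an MII library, and Cd74, an antigen presentation gene, had 1095 reads in control MII library b and 0 in the other MII libraries. Between genotypes at MII 1 of the 6 tested blood and immune markers was called, beside 5.14% of all genes. Of the 6, 5 had an unadjusted p below 0.05 and DESeq2 called 2. The called gene was Cd52, with 0 reads in both knockout MII libraries, against 108 and 304 in control MII libraries (adjusted p = 0.0204), a call lost in DESeq2. The median log2 fold change of the 6 was -5.55. The part of markers of other cells in the results above was not tested.

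Over the 8 libraries the zona genes followed each other closely. Pearson's r of log2(CPM + 1) was 0.997 between Zp1 and Zp2, 0.99 between Zp1 and Zp3 and 0.996 between Zp2 and Zp3, against 0.595 to 0.61 between Astl and a zona gene. The libraries form a GV and an MII cluster, so these values mainly carry the step between the stages. Among 3352 genes with a mean of at least 50 CPM, those close to Zp1 included Gm38383 and Sod1, a superoxide dismutase, both at 0.9988. The closest to Zp2 were Oas1c at 0.9991, Gm813 at 0.9987 and Cct2, a chaperonin subunit, at 0.9978. The closest to Zp3 were Cct2 at 0.9987, Oas1c at 0.9979 and Rbpms2, an RNA-binding protein gene, at 0.9976. Astl had no partner as close, with Tsg101 at 0.9071, Mmadhc at 0.9018 and Ints3 at 0.8739.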

How the data were processed

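The deposited values were raw counts per Ensembl gene in 1 table of 8 libraries, with 54838 genes and 5 HTSeq summary entries (22% to 35.13% of reads), which stayed out of all library sizes. The authors used Bowtie2 with mm10, HTSeq and edgeR, per the submitters' processing notes. Not given in the sources used here were versions, strand setting and any selection of poly(A) RNA. All value columns were used, leaving 0 unused. Per the file headers, both control MII columns carry 1 name, so they are called a and b without a replicate number.

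The model used edgeR 4.0.16 (R 4.3.3): filterByExpr over 4 groups (15572 genes), TMM scaling, and quasi-likelihood F-tests (two-sided) on 1 model of all 8 libraries with residual df 4, prior df 6.3 and common dispersion equal to a biological coefficient of variation of 0.507. Adjustment was by Benjamini-Hochberg over all tested genes. The SE is the log2 fold change divided by the square root of F. Summed marker levels are CPM over all genes without scaling. Where a group held 0 reads, a fold is a bound against 3 reads per library, and floors and counting intervals (95%, Clopper-Pearson) cover counting error only. Symbols, exons and UTRs came from GENCODE M21. The scripts were tested on simulated data. Replicate columns differed beyond sampling noise in every group (chi-square per degree of freedom 48.5 to 106).

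Members, gene lists, tests and alternatives were chosen with earlier results of these data known. In each list at most 4 called genes with the smallest p were eligible to be named, plus Figla, Cd9, Furin, Ybx2, Fetub and Zp3r, and for each member the 3 genes of highest r, of which 1 is not reported here. Alternatives were other scalings, DESeq2 1.42.0, other filters, smaller fits, a replicate block and leaving out each library.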

Additional observations from a re-analysis of the deposited data

How the results depend on the processing

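The fall of Zp1, Zp2 and Zp3 from GV to MII passed in both genotypes under all settings, 8 of which left out 1 library. In knockout oocytes the values ran from -5.18 to -4.61 for Zp1, from -5.11 to -4.55 for Zp2 and from -4.28 to -3.67 for Zp3. Scaling by upper quartiles moved the median change of all genes by 0.296 in knockout and 0.241 in control oocytes. With 1 library left out, Astl from GV to MII ran from -1.19 to -0.22 in knockout and from -0.72 to 0.037 in control oocytes, and Furin in knockout oocytes ran from -0.0611 to 0.936.

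No knockout effect on the 4 genes passed under any setting. At GV, library totals gave -0.0158 for Zp1, -0.29 for Zp2 and -0.25 for Zp3 and moved the median of all genes by -0.271. Zp2 was -0.02 with upper quartiles (-0.02328) and when genes averaged 5 CPM or more (-0.0186), and Astl was 0.0102 without a filter. At MII, Zp1 was 0.00985 with RLE size factors, 0.0268 without mitochondrial genes and 0.00984 with DESeq2. With library totals, the difference between stages was 0.0541 for Astl and the average was -0.0514 for Zp1. With 1 library left out, the GV values ran from 0.01 to 0.57 for Zp1, from -0.24 to 0.29 for Zp2, from -0.25 to 0.36 for Zp3 and from -0.34 to 0.42 for Astl. The MII values ran from -0.12 to 0.18 for Zp1 and from -0.75 to 0.22 for Astl. The difference ran from -0.58 to 0.0134 for Zp1 and from -0.75 to 0.22 for Astl, and the average for Astl from -0.37 to 0.11. The causes were not tested.

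Counts of genes called between genotypes depended on the setting. At GV 93 higher and 61 lower became 304 and 222 with DESeq2, 336 and 191 without a filter, 345 and 357 in a fit of the 2 groups alone, and 59 and 62 with library totals. At MII 265 and 535 became 643 and 1108 with DESeq2, 599 and 1230 without a filter and 166 and 226 in a fit of the 2 groups alone. For the difference 1 and 12 became 104 and 239 with DESeq2, 125 and 373 without a filter, 5 and 36 for genes averaging 5 CPM or more, 0 and 2 with library totals, and 0 and 1 under the other scalings. For the average 411 and 593 became 815 and 1114 with DESeq2, 842 and 1195 without a filter, and 269 and 733 with library totals. With 1 library left out, higher and lower calls ran from 15 to 104 and from 14 to 83 at GV, from 149 to 258 and from 291 to 513 at MII, from 0 to 3 and from 0 to 21 for the difference, and from 149 to 428 and from 204 to 704 for the average. From GV to MII they ran from 1955 to 3052 and from 3285 to 4818 in knockout oocytes, and from 2158 to 3261 and from 2917 to 4717 in control oocytes. Higher genes were 60.4% of the calls at GV, against 48.8% with library totals, and 40.9% of the averaged calls, against 26.8%.

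Replicate numbers are shared by knockout GV, control GV and knockout MII libraries, and nothing in the labels says that a number marks a shared animal or day. Deviations of same-numbered libraries correlated at 0.24 between knockout and control GV and at -0.00785 between knockout MII and knockout GV. With a replicate block the GV changes were 0.28 for Zp1, 0.02 for Zp2, 0.03 for Zp3 and -0.04 for Astl, with 87 genes higher and 46 lower, and from GV to MII in knockout oocytes they were -4.88 for Zp1, -4.83 for Zp2, -3.96 for Zp3 and -0.61 for Astl, with 3049 higher and 4687 lower. No paired analysis was possible for control MII because its columns carry no number. With 2 libraries a group, a small knockout effect on the zona genes was not detectable.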

Other observations

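Genes with zona pellucida names that are not coat proteins of the mouse were present at low level. Zp4-ps, the mouse pseudogene of the coat protein ZP4 of other mammals, had 105 and 78 reads in knockout MII, 5 and 110 in control MII, 482 and 582 in knockout GV and 409 and 534 in control GV libraries. All GV libraries lay above all MII libraries. Zp3r, which encodes a protein of the sperm acrosome, had 0 and 2 reads in knockout MII, 0 and 0 in control MII, 16 and 36 in knockout GV and 31 and 27 in control GV libraries.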
